A study of Mus musculus with 6 samples.

Results

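Expression of the growth hormone (GH) axis and of the selenium-binding protein genes Selenbp1 and Selenbp2 was examined in livers of mice expressing the bile acid receptor FXR as FXR-WT or as Y67F-FXR, in which the tyrosine at position 67 is replaced by phenylalanine and cannot be phosphorylated. The 10 genes are the receptor gene Ghr, the signal transducer genes Stat5a and Stat5b, the circulating product genes Igf1 and Igfals, the feedback inhibitor genes Socs2 and Cish, the repressor gene Bcl6, and the Selenbp pair. They are 10 of the 23284 genes counted, and all 10 were among the 12453 genes that passed the filter on low counts. They were chosen by name, with the difference between these same livers already known. Their differences and calls are therefore given as descriptions, and no p-value is printed for them. FXR-floxed male mice received, at 8 weeks of age, AAV8 carrying Cre together with AAV8 carrying FXR-WT (3 mice) or Y67F-FXR (3 mice). Both vectors use the TBG promoter, which is active in hepatocytes, so in both groups Cre removes the floxed mouse gene in hepatocytes and cells of other types keep it. Both groups were fed chow with 0.5% cholic acid (CA) for 6 h at 4 weeks after injection, and no liver without a vector or without CA was compared here. Each liver gave 1 library.

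GH from the pituitary binds the GH receptor on hepatocytes, and the attached kinase JAK2 then phosphorylates STAT5, which enters the nucleus and activates genes such as Igf1, Igfals, Socs2 and Cish. BCL6 is a transcriptional repressor that can occupy the same DNA sites as STAT5. In rodents GH is secreted in a different temporal pattern in males and females, and many sex-biased liver genes depend on this pattern. SELENBP1 binds selenium and oxidizes methanethiol, and SELENBP2 is its close paralog, first described in mouse liver as a protein that binds acetaminophen.

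Libraries held 19551113 to 22053320 counted reads. Values are CPM (counts relative to library size) scaled by TMM factors, and a log2 fold change is Y67F-FXR relative to FXR-WT, fitted with edgeR. A gene was called when its quasi-likelihood p, adjusted by Benjamini-Hochberg, was under 0.05 and its fold change was over 1.5. Alb alone took 6.90% to 7.36% of the reads, and the summed level of 6 hepatocyte markers was 98577 to 112933 CPM in FXR-WT and 96304 to 118686 CPM in Y67F-FXR livers. Nr1h4, the gene for FXR, stood at 186 ± 30.2 CPM under FXR-WT and 175 ± 9.84 CPM under Y67F-FXR (both n = 3, SD), and its count may include vector transcripts. The 5 stellate cell markers summed to 58.1 to 80.2 CPM in FXR-WT and to 46.0 to 56.0 CPM in Y67F-FXR livers, without overlap. Of the 5, 4 were fitted lower, with log2 fold changes of -1.15 for Lrat, -0.16 for Des, -0.77 for Col1a1 and -1.95 for Acta2, and Reln, the most abundant, was at 0.04. The median of the 5 was -0.77, and 3 of the 5, Acta2 among them, had an unadjusted quasi-likelihood p under 0.05, against 13.4% of all tested genes. Lrat and Col1a1 did not overlap between the groups, with all Y67F-FXR livers lower, as for 10.5% of all tested genes. Without Lrat the sums, mostly Reln, were 44.2 to 61.5 CPM and 40.2 to 47.5 CPM, which overlap. Their part in the results was not tested. None of the 23 tested markers of 5 cell types was called (edgeR's quasi-likelihood test), and 4 had an unadjusted p under 0.05, as did 13.4% of all tested genes. DESeq2 and the likelihood ratio test each called 2 of the 23 lower, against 1.63% and 1.81% of all genes, namely the neutrophil marker S100a8 and the stellate cell marker Lrat. Lrat stood at 16.6 ± 3.05 CPM in FXR-WT and 7.47 ± 1.47 CPM in Y67F-FXR livers (both n = 3, SD). S100a8 stood at 1.03 ± 0.211 CPM and 0.151 ± 0.0982 CPM (both n = 3, SD), so it rests on few reads. Kupffer cell and leukocyte, cholangiocyte and endothelial markers had sums that overlapped between the groups, and the 2 erythrocyte markers were at 0 in every library. The sum that includes S100a8 comes mostly from far more abundant genes and does not reflect S100a8.

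Selenbp2 was the member with the greatest distance between the groups, and Bcl6 was the other member called. Selenbp2 was called lower in Y67F-FXR livers and Bcl6 higher, against 0.426% of all tested genes called lower and 0.546% called higher. No Y67F-FXR liver reached the FXR-WT range of Selenbp2, and the same separation, upward, was found for Bcl6 and Stat5a. Among all tested genes, the Y67F-FXR livers were all below the FXR-WT livers for 10.5% and all above them for 10.2%. The remaining 7 genes, Ghr, Stat5b, Igf1, Igfals, Socs2, Cish and Selenbp1, had overlapping groups. The fitted values of 5 members were lower and of 5 higher in Y67F-FXR livers, and the median of the 10 log2 fold changes was 0.06, beside 0.01 over all tested genes. Because the members were selected on this contrast, nothing is read from these counts.

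**Figure D1:**
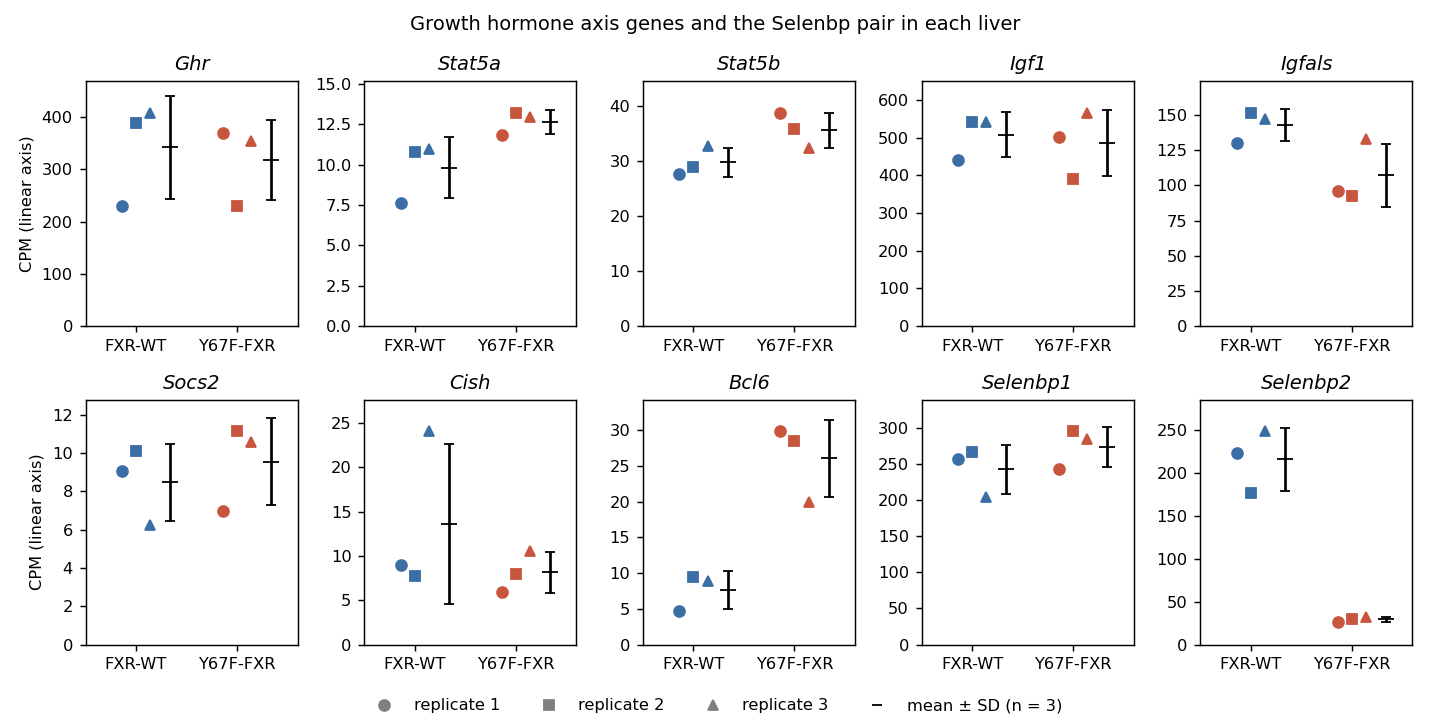
CPM of each of the 10 genes in the 3 FXR-WT and 3 Y67F-FXR livers, on linear axes that start at 0 and differ between genes, with each point 1 liver (shape gives the replicate) and the bar the mean ± SD. Selenbp2 lies between 177 and 249 CPM in FXR-WT and between 26.4 and 31.9 CPM in Y67F-FXR livers, Bcl6 lies between 4.64 and 9.41 CPM and between 19.9 and 29.8 CPM, and Ghr and Igf1 overlap.

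Ghr, the receptor gene (chr15:3267760-3533230 in mm9, minus strand), was expressed at 229, 389 and 408 CPM in FXR-WT replicates 1 to 3 and at 369.9, 229 and 355 CPM in Y67F-FXR replicates 1 to 3. Each group thus held a liver near 229 CPM and a pair of higher livers, and the groups overlapped over nearly their whole range. The means were 342 ± 98.2 CPM (n = 3, SD) and 318 ± 77.2 CPM (n = 3, SD). The log2 fold change was -0.11 (standard error 0.259), with a 95% interval from -0.70 to 0.49, which holds differences of either sign. In bulk liver RNA, fewer cells of a type and less RNA per cell cannot be told apart.

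STAT5A and STAT5B are the transcription factors that carry the GH signal, with STAT5B the more abundant in liver. Stat5b (chr11:100642045-100711899 in mm9, minus strand) was expressed at 27.7, 28.9 and 32.7 CPM in FXR-WT and at 38.7, 35.8 and 32.4 CPM in Y67F-FXR replicates 1 to 3. Stat5a (chr11:100720665-100746483 in mm9, plus strand), its neighbor on chromosome 11, was expressed at 7.63, 10.8 and 10.97 CPM in FXR-WT and at 11.8, 13.2 and 12.98 CPM in Y67F-FXR livers. The 3 Y67F-FXR livers were all above the FXR-WT livers for Stat5a, by a small margin, whereas for Stat5b Y67F-FXR replicate 3 lay just under FXR-WT replicate 3. The log2 fold change was 0.37 for Stat5a (standard error 0.174, 95% interval -0.03 to 0.77) and 0.26 for Stat5b (standard error 0.128, 95% interval -0.04 to 0.55), and neither gene was called. Coding sequences of the pair are 85.3% identical, and 7.56% of the 100-base windows in the Stat5a transcript and 5.18% of those in Stat5b occur unchanged in the other gene, so reads there were counted for neither if they mapped to both places.

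Igf1 encodes the growth factor that liver releases into blood under GH, and Igfals encodes the acid-labile subunit that holds it in a large circulating complex. Igf1 (chr10:87321801-87399792 in mm9, plus strand) was expressed at 439.7, 542 and 542 CPM in FXR-WT and at 502, 391 and 566 CPM in Y67F-FXR replicates 1 to 3. The FXR-WT values fell inside the Y67F-FXR range, and the means of 508 ± 59.3 CPM (n = 3, SD) and 486 ± 88.5 CPM (n = 3, SD) differed by less than either SD. The log2 fold change of Igf1 was -0.06 (standard error 0.168, 95% interval -0.45 to 0.32). Igfals (chr17:25015715-25018953 in mm9, plus strand) was expressed at 129.95, 151 and 147 CPM in FXR-WT and at 95.9, 92.2 and 133 CPM in Y67F-FXR livers. A pair of Y67F-FXR livers lay under every FXR-WT liver, and replicate 3 lay just above the lowest of them. The means of Igfals were 143 ± 11.4 CPM (n = 3, SD) and 107 ± 22.7 CPM (n = 3, SD), and the log2 fold change was -0.42 (standard error 0.166, 95% interval -0.80 to -0.03), and the gene was not called. An interval for 1 gene is not adjusted for the number of genes tested.

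SOCS2 and CISH are SH2-domain proteins induced by STAT5 that dampen signalling from the receptor. Socs2 (chr10:94874124-94879491 in mm9, minus strand) was expressed at 9.04, 10.1 and 6.22 CPM in FXR-WT and at 6.95, 11.1 and 10.6 CPM in Y67F-FXR replicates 1 to 3, with overlapping groups and a log2 fold change of 0.18 (standard error 0.245, 95% interval -0.39 to 0.74). Cish (chr9:107199020-107204292 in mm9, plus strand) was expressed at 8.996, 7.76 and 24.1 CPM in FXR-WT and at 5.93, 8.02 and 10.5 CPM in Y67F-FXR livers. FXR-WT replicate 3 stood 3.10-fold above the lowest liver of its group, and the other FXR-WT livers lay within the Y67F-FXR range. The means of Cish were 13.6 ± 9.08 CPM (n = 3, SD) and 8.17 ± 2.31 CPM (n = 3, SD), and the log2 fold change was -0.74 (standard error 0.436, 95% interval -1.74 to 0.27). Without FXR-WT replicate 3 it was -0.04, so the fitted difference rested on that liver. Socs2 and Cish did not share their pattern across livers, since FXR-WT replicate 3 was the lowest liver of its group for Socs2 and the highest for Cish. Of the 100-base windows in the Socs2 transcript 10.4% also occur in the transcript Gm9847, and of those in Cish 10.4% also occur in Gm17041.

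Bcl6, the repressor gene (chr16:23965138-23988698 in mm9, minus strand), was expressed at 4.64, 9.41 and 8.86 CPM in FXR-WT and at 29.8, 28.5 and 19.9 CPM in Y67F-FXR replicates 1 to 3. The lowest Y67F-FXR liver was clearly above the highest FXR-WT liver. The means were 7.64 ± 2.60 CPM (n = 3, SD) and 26.1 ± 5.37 CPM (n = 3, SD), a 3.41-fold difference, and the log2 fold change was 1.77 (standard error 0.280, 95% interval 1.12 to 2.41). In reads, FXR-WT livers had 95, 194 and 205 counts of Bcl6 and Y67F-FXR livers 613, 522 and 417. The gene was no longer called when the livers were blocked by replicate number (log2 fold change 1.80) or when any liver other than FXR-WT replicate 1 was left out, with log2 fold changes from 1.51 to 1.94 over the 6 fits that each left out 1 liver.

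Because STAT5 and BCL6 bind related sites, the windows from 250 bases before to 50 bases after each RefSeq start site (GRCm38.p6) were searched for the letters TTCNNNGAA, which read the same on both strands. Windows were found for 9 of the 10 members, 15 windows in all, and Socs2 was not among them. The letters occurred in 5 of these 15 windows and in 8.30% of all 32851 windows of the same length. They occurred 3 times before the downstream Bcl6 start site, once before its upstream start site, once before each of a pair of the 3 Igfals start sites, and in the Cish window at the start site itself and 11 bases past it. Windows of Ghr, Stat5a, Stat5b, Igf1, Selenbp1 and Selenbp2 held none. The 250 bases before the downstream Bcl6 start site (chr16:23981284-23981533 in GRCm38.p6, minus strand) are shown because they held the most matches among the members, which are in capitals.
Bcl6: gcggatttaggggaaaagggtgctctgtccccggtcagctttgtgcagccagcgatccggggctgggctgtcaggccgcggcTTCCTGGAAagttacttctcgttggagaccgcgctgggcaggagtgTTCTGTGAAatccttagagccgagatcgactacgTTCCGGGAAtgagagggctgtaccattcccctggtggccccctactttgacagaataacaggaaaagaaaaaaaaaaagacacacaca
The matches lie 168, 122 and 88 bases before the start site. They describe the letters only, and neither binding nor the start site in use in these livers was measured.

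Selenbp1 and Selenbp2 lie close together on chromosome 3 (chr3:94737005-94748680 and chr3:94497495-94508328 in mm9, both plus strand). Their coding sequences are of the same length and 98.7% identical, with 18 differing bases in 1416. The 60-base stretch with the most differences, coding bases 390 to 449 counted from the start codon in the GENCODE transcripts, is shown to make plain how few letters separate a read of the 2 genes, with differing bases in capitals.
Selenbp1: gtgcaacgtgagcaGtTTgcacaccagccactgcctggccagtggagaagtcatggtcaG
Selenbp2: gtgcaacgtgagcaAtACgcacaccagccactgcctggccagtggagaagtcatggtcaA
The longest run without a difference is 193 bases. Of all 100-base windows, which is the length of a read, 21.3% in the Selenbp1 transcript and 21.2% in the Selenbp2 transcript occur in both genes, and such reads were left out of the counts when they mapped to both places. The counts of the pair therefore rest on read pairs in which a read or its mate covers a difference. The windows do not take the mate into account. A read with a sequencing error at such a base can be placed on the wrong gene. No member shared exon bases with another gene in the annotation behind the counts.

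Selenbp2 was expressed at 223, 177 and 249 CPM in FXR-WT and at 26.4, 29.8 and 31.9 CPM in Y67F-FXR replicates 1 to 3. Y67F-FXR livers lay close together and far under the FXR-WT livers. The means were 216 ± 36.5 CPM (n = 3, SD) and 29.4 ± 2.77 CPM (n = 3, SD), a 7.35-fold difference, and the log2 fold change was -2.88 (standard error 0.166, 95% interval -3.26 to -2.49). In reads, there were 4566, 3645 and 5754 counts of Selenbp2 in FXR-WT and 544, 547 and 669 in Y67F-FXR livers. The gene was called lower in the main fit and in each of the 15 alternative fits, with log2 fold changes from -3.00 to -2.77.

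Selenbp1 did not show the same difference. It was expressed at 257, 267 and 204 CPM in FXR-WT and at 243, 295 and 284 CPM in Y67F-FXR replicates 1 to 3, and the groups overlapped. The means were 243 ± 33.8 CPM (n = 3, SD) and 274 ± 27.6 CPM (n = 3, SD), and the log2 fold change was 0.18 (standard error 0.147, 95% interval -0.16 to 0.51). The interval does not include the size of the Selenbp2 difference in either direction. Among the FXR-WT livers, replicate 3 was lowest for Selenbp1 and highest for Selenbp2, while replicate 2 was highest for Selenbp1 and lowest for Selenbp2.

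Selenbp2 took 46.4%, 39.8% and 54.9% of the reads counted on the pair in FXR-WT replicates 1 to 3, with 95% Wilson intervals of 45.5% to 47.4%, 38.8% to 40.8% and 54.0% to 55.9%. In Y67F-FXR replicates 1 to 3 it took 9.81%, 9.18% and 10.1%, with intervals of 9.06% to 10.6%, 8.47% to 9.94% and 9.39% to 10.8%. The FXR-WT livers differed from each other by more than counting error, whereas the intervals of the Y67F-FXR livers overlapped. The mean share was 47.1% ± 7.55 (n = 3, SD) in FXR-WT and 9.70% ± 0.471 (n = 3, SD) in Y67F-FXR livers. The summed level of the pair was 459 ± 19.3 CPM (n = 3, SD) in FXR-WT and 303.6 ± 30.0 CPM (n = 3, SD) in Y67F-FXR livers. These intervals cover counting error only.

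**Figure D2:**
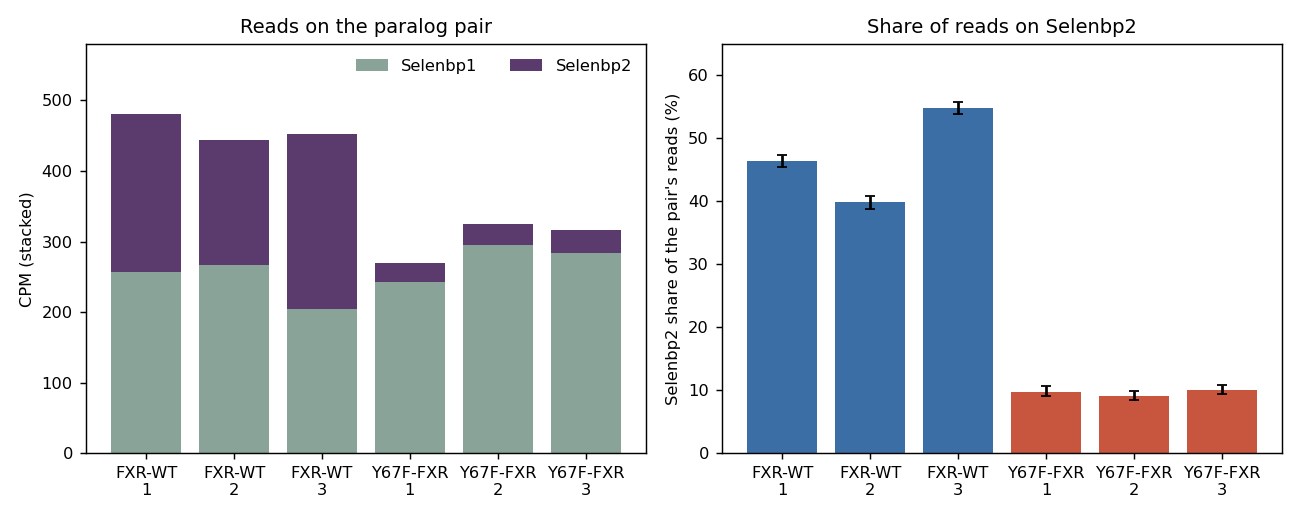
Left, CPM of Selenbp1 and Selenbp2 stacked in a bar for each liver. Right, the share of the pair's reads on Selenbp2 in percent, with 95% Wilson intervals as error bars, from 39.8% to 54.9% in FXR-WT and from 9.18% to 10.1% in Y67F-FXR livers, while Selenbp1 lies between 204 and 295 CPM in all 6 livers.

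The 250 bases before the RefSeq start sites of the pair are shown because the 2 genes differed in response while the sequence in front of them is similar. They are Selenbp1, chr3:94932833-94933082, and Selenbp2, chr3:94693323-94693572, both in GRCm38.p6 on the plus strand. Capitals mark bases that differ from, or have no partner in, the other gene when the stretches are aligned.
Selenbp1: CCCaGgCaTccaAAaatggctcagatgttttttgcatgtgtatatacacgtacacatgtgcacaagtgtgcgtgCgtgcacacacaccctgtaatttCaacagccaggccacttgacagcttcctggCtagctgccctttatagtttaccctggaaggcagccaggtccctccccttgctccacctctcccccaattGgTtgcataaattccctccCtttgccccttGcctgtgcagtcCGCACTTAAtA
Selenbp2: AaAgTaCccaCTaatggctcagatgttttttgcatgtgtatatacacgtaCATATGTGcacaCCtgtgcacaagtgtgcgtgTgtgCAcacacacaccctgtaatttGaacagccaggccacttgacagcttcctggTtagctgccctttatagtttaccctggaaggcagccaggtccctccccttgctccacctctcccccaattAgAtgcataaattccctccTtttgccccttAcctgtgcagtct
Of 262 aligned columns, 225 (85.9%) were identical, 13 held different bases and 24 held a gap. The differing bases were not related to the expression values.

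**Figure D3:**
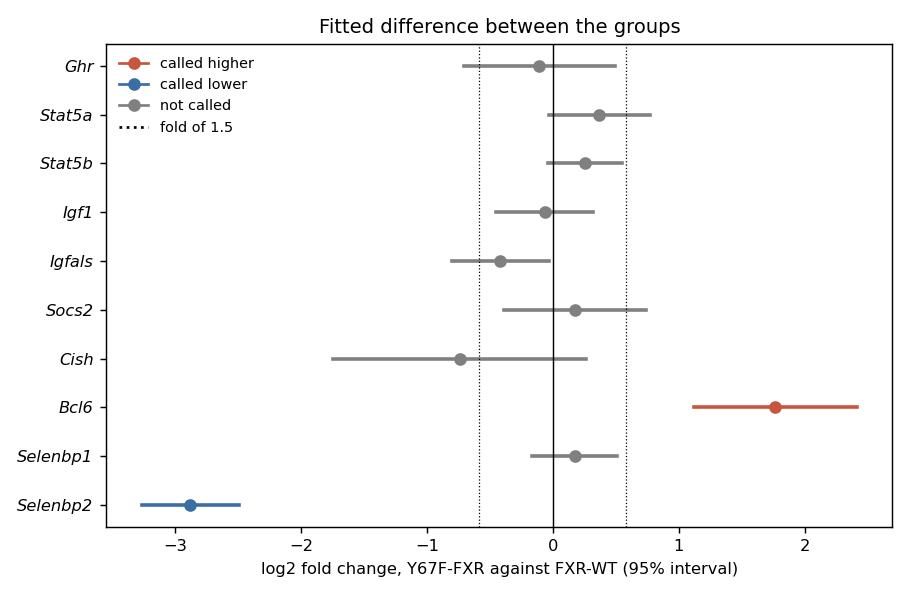
Fitted log2 fold change of Y67F-FXR relative to FXR-WT for the 10 genes (point) with its 95% interval (line), n = 3 livers per group, and dotted lines at a fold of 1.5 in each direction. Only Bcl6 at 1.77 and Selenbp2 at -2.88 lie farther than 1 from 0, and the Igf1 and Ghr intervals span 0.

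Levels of different genes are given per kilobase of the gene length in the count files. This length can exceed that of a transcript. For Igf1 it is 7817 bp, whereas its GENCODE transcript with the longest coding sequence has 2292 bases. The order of the genes therefore depends on the length used, and for the Selenbp pair also on the reads left out. In CPM per kilobase, FXR-WT livers had 144 ± 20.1 (n = 3, SD) for Selenbp1, 128 ± 21.5 for Selenbp2, 77.3 ± 22.2 for Ghr, 67.7 ± 5.39 for Igfals and 65.003 ± 7.58 for Igf1. The other genes were far lower in this unit, at 6.30 ± 4.201 for Cish, 5.47 ± 0.479 for Stat5b, 3.14 ± 0.748 for Socs2, 2.52 ± 0.485 for Stat5a and 2.32 ± 0.793 for Bcl6. Within FXR-WT livers the ranges of neighboring genes in this order overlapped for 6 of 9 neighbors, and did not overlap between Selenbp2 and Ghr, between Igf1 and Cish, and between Stat5b and Socs2. In Y67F-FXR livers Selenbp2, at 17.3 ± 1.64 CPM per kilobase (n = 3, SD), stood at place 5 in place of 2. Bcl6, at 7.93 ± 1.63 CPM per kilobase (n = 3, SD), stood at place 6 in place of 10, with a range that overlapped that of Stat5b. In this unit Selenbp1 had the highest mean in both groups, although in FXR-WT its range overlapped that of Selenbp2. This first place depends on the length used for Igf1.

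Libraries within a group differed by gene length. In the longest 20% of genes (median 6202.5 bp) the median log2 deviation from a gene's mean over the 6 livers was lowest in Y67F-FXR replicate 2 (-0.17) and FXR-WT replicate 1 (-0.13) and highest in Y67F-FXR replicate 1 (0.19) and FXR-WT replicate 3 (0.11). In the next 20% (median 3934 bp) it was -0.11 and -0.076 in the same livers, Y67F-FXR replicate 2 and FXR-WT replicate 1. Of the members, Igf1 (7817 bp) and Stat5b (5442 bp) are in the longest 20%, and Ghr (4425 bp) and Stat5a (3888 bp) in the next. Within their groups, Ghr and Igf1 were lowest in FXR-WT replicate 1 and Y67F-FXR replicate 2. Their log2 deviations there were -0.49 and -0.49 for Ghr and -0.16 and -0.33 for Igf1. Stat5b and Stat5a were also lowest in FXR-WT replicate 1, but not in Y67F-FXR replicate 2, where their log2 deviations were 0.14 and 0.25. With offsets for gene length, an alternative added after these trends were seen, the log2 fold change was -0.13 for Ghr (standard error 0.200) and -0.08 for Igf1 (standard error 0.134). The part of length in the spread of single genes was not tested further.

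**Figure D4:**
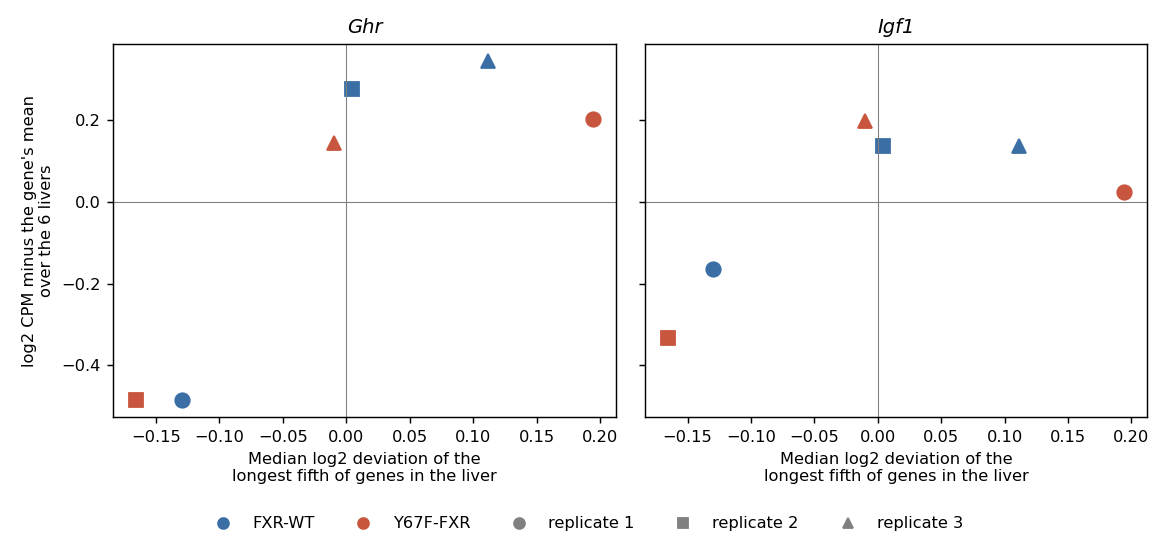
Log2 deviation of Ghr (left) and Igf1 (right) from their mean over the 6 livers, against the median log2 deviation of the longest 20% of genes in the same liver, with each point 1 liver. FXR-WT replicate 1 (-0.13 on the horizontal axis) and Y67F-FXR replicate 2 (-0.17) hold the lowest values of both genes.

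Other genes of the axis were taken from lists written with earlier results of these data known. Of 18 genes of GH receptor signalling, which include the kinase gene Jak2, none was called by edgeR's quasi-likelihood test, and 2 had an unadjusted p under 0.05, beside 13.4% of all tested genes. The mean CPM of Jak2 was 9.80 ± 2.76 in FXR-WT and 8.48 ± 2.53 in Y67F-FXR livers (both n = 3, SD). The median log2 fold change of the list was -0.04, with 11 genes fitted lower and 7 higher. DESeq2 and edgeR's likelihood ratio test each called 1 gene of this list as higher, Irs2, an adaptor of insulin signalling, which is named after its values were seen. The mean CPM of Irs2 was 1.21 ± 0.787 in FXR-WT and 4.94 ± 3.19 in Y67F-FXR livers (both n = 3, SD), and the lowest Y67F-FXR liver (2.13 CPM) was barely above the highest FXR-WT liver (2.12 CPM). The other gene of this list with an unadjusted p under 0.05 was Shc1, which went the other way and was not called. It stood at 48.5, 47.2 and 50.9 CPM in FXR-WT and at 38.4, 30.9 and 33.7 CPM in Y67F-FXR replicates 1 to 3. Such a separation downward was found for 10.5% of all tested genes. Over all genes DESeq2 called 1.63% lower and 1.68% higher, and the likelihood ratio test 1.81% lower and 1.77% higher, more than the quasi-likelihood test did.

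Of 13 genes of the insulin-like growth factor (IGF) system, 10 were tested and none was called by edgeR's quasi-likelihood test, by the likelihood ratio test or by DESeq2. The unadjusted p was under 0.05 for 1 of the 10, against 13.4% of all tested genes, and that gene is Igfbp1, named after its values were seen. Igfbp1, a binding protein gene that insulin represses in liver, stood at 52.1, 19.0 and 10.4 CPM in FXR-WT and at 96.1, 66.7 and 44.4 CPM in Y67F-FXR replicates 1 to 3, with overlapping groups and an edgeR quasi-likelihood adjusted p of 0.338. The list's median log2 fold change was 0.15, with 3 genes fitted lower and 7 higher. Of 12 liver transcription factors of the GH network, none was called by the quasi-likelihood test or by DESeq2, and 3 of the 12 had an unadjusted p under 0.05, beside the same 13.4% over all tested genes. The likelihood ratio test called 1 of them, Cux2, a female-biased factor, at 2.54, 1.65 and 0.475 CPM in FXR-WT and at 0.292, 0.491 and 0.430 CPM in Y67F-FXR livers. The median log2 fold change of these 12 genes was -0.04, with 7 fitted lower and 5 higher.

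Male-biased genes that depend on GH did not move in 1 direction. Of 18 tested, 1 was called lower and 1 higher, beside 0.426% and 0.546% of all tested genes. The median log2 fold change was -0.08, with 10 genes fitted lower and 8 higher, and 8 of the 18 genes with an unadjusted p under 0.05, beside 13.4% of all tested genes. DESeq2 and the likelihood ratio test each called 3 lower and 2 higher, beside 1.63% lower and 1.68% higher of all genes with DESeq2 and 1.81% and 1.77% with the likelihood ratio test. Hsd3b5, a steroid dehydrogenase gene, fell from 109 ± 25.9 CPM (n = 3, SD) to 4.92 ± 2.07 CPM (n = 3, SD), and the log2 fold change was -4.47 (standard error 0.336, edgeR quasi-likelihood adjusted p = 0.00314). Elovl3, a fatty acid elongase gene, rose from 34.6 ± 11.8 CPM (n = 3, SD) to 103 ± 3.96 CPM (n = 3, SD), and the log2 fold change was 1.58 (standard error 0.245, edgeR quasi-likelihood adjusted p = 0.0336). Elovl3 shares exon bases with Pitx3 in the annotation, so its count is uncertain. Hsd3b5 was called in all 15 alternative fits, whereas Elovl3 was called in 9 of them and in 1 of the 6 that left out a liver, where its adjusted p in edgeR reached 0.137.

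Of 25 female-biased genes, 15 were tested and none was called by edgeR's quasi-likelihood test, with 7 of the 15 at an unadjusted p under 0.05 (13.4% over all tested genes) and a median log2 fold change of -0.08. DESeq2 and the likelihood ratio test each called 2 of them lower, Cyp2c40 and Cyp2c69, and 1 higher, Acot3, beside 1.63% lower and 1.68% higher of all genes with DESeq2 and 1.81% and 1.77% with the likelihood ratio test. Acot3, an acyl-CoA thioesterase gene named after its values were seen, stood at 11.6, 49.9 and 31.6 CPM in FXR-WT and at 139, 145 and 109 CPM in Y67F-FXR replicates 1 to 3, with an edgeR quasi-likelihood adjusted p of 0.0909. Cyp2c40 and Cyp2c69 belong to a family of similar genes, and their counts are uncertain. Beside the Selenbp pair, 23 tested selenoprotein and selenium-handling genes had no call by the quasi-likelihood test, the likelihood ratio test or DESeq2, with 4 of the 23 at an unadjusted p under 0.05 (13.4% over all tested genes), a median log2 fold change of 0.03, 11 genes fitted lower and 12 higher.

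**Figure D5:**
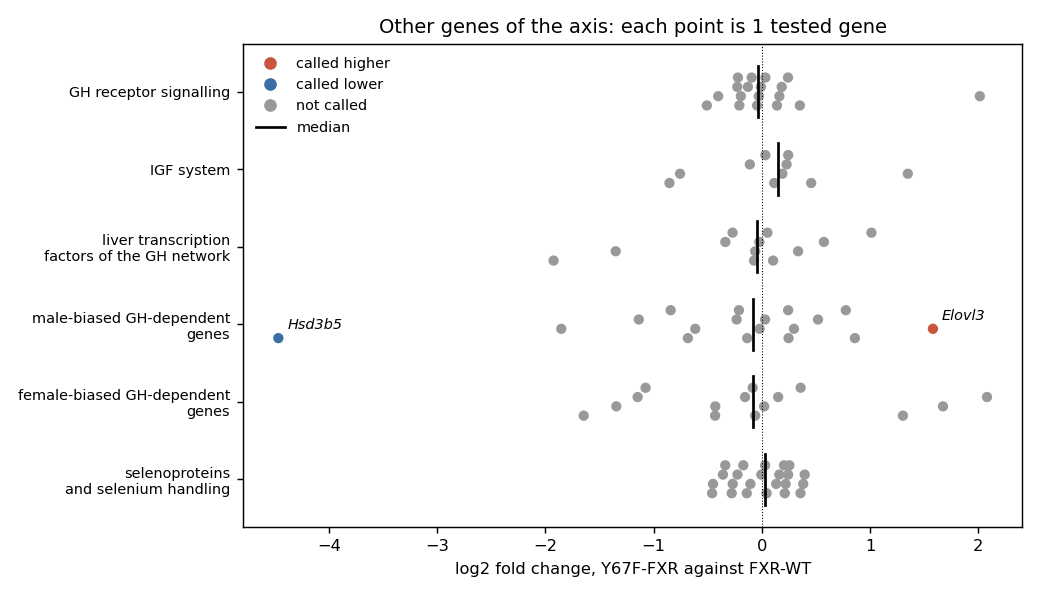
Fitted log2 fold change of Y67F-FXR relative to FXR-WT for each tested gene of the 6 lists, with each point 1 gene, called genes colored, and the vertical line the median of the list. The medians lie between -0.08 and 0.15, and Hsd3b5 at -4.47 and Elovl3 at 1.58 are the called genes.

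Genes whose pattern over the 6 livers was close to that of Selenbp2, by the root mean square difference of mean-centred log2 CPM among 11513 genes compared, were Cyp2c70 (0.27) and Sdf2l1 (0.32), the nearest of all, beside a root mean square of 1.44 for Selenbp2's own pattern. Cyp2c70 encodes the enzyme that makes muricholic acids in mouse liver, and Sdf2l1 an endoplasmic reticulum protein. The mean CPM in FXR-WT and Y67F-FXR livers was 144 and 21.4 for Cyp2c70, and 38.4 and 5.16 for Sdf2l1. For Igf1, with a root mean square of 0.19, the nearest genes were Pcca (0.039), Hdac11 (0.040) and Agpat2 (0.042), with log2 fold changes of -0.07, 0.01 and 0.01. These are 6 livers in 2 groups, so likeness to Selenbp2 is mainly likeness in the difference between the groups.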

How the data were processed

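Liver RNA was sequenced as paired-end 100-base reads, 1 library per mouse. Per the labels and the submitters' processing notes, the authors trimmed with Trimmomatic 0.36, aligned with STAR 2.5.3a and counted with featureCounts 1.4.6-p4 on mm9 gene models, without strand and without reads that mapped to several places. The deposited values are raw counts. A deposited table of the authors' own comparison (fold changes and p-values) was not used. Counts were filtered with filterByExpr, scaled by TMM and compared with edgeR 4.0.16 (glmQLFit, glmQLFTest) in R 4.3.3, with Benjamini-Hochberg adjustment over 12453 genes. CPM per kilobase used the gene lengths in the count files, and log2 CPM a prior count of 2. Sequences came from RefSeq (GRCm38.p6) and GENCODE vM21 (GRCm38), while gene coordinates are those of the count files.

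The members and lists were chosen with earlier results of these data known. The genes named were the 10 members, at most 4 called genes in each direction per list, Nr1h4, and the 3 genes most like Selenbp2 and Igf1, of which 1 is not reported here. Jak2, Irs2, Shc1, Igfbp1, Cux2, Cyp2c40, Cyp2c69, Acot3, S100a8 and the stellate markers fall outside this rule and were named after their values were seen. Lists covered GH receptor signalling, the IGF system, liver transcription factors of the GH network, male-biased genes, female-biased genes, selenoproteins, and markers of hepatocytes, Kupffer cells and leukocytes, stellate cells, cholangiocytes, endothelial cells and erythrocytes. For 3 of 28 selenium genes no symbol was matched. Alternatives were RLE and upper-quartile factors, library totals, DESeq2 1.42.0, the likelihood ratio test, other filters, the replicate number as a block, each liver left out and, chosen after the data were seen, gene length offsets. Fits were tested on simulated data. The labels do not say that the same replicate number in each group marks a shared animal or day.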

Additional observations from a re-analysis of the deposited data

How the results depend on the processing

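The number of members called lower was 1 in each alternative. The number called higher moved from 1 to 0 with the replicate block, and ranged from 0 to 1 when each liver was left out, with Bcl6 kept only without FXR-WT replicate 1. Of the list genes (18, 10, 12, 18, 15 and 23 tested per list), 1 was called lower and 1 higher, against 0.426% and 0.546% of all tested genes. The count called lower was 5 with DESeq2, against 1.63% of all genes, and 6 with the likelihood ratio test, against 1.81%. It was 2 with no filter and 2 with gene length offsets. The count called higher was 4 with DESeq2, against 1.68% of all genes, and 4 with the likelihood ratio test, against 1.77%. It was 2 with no filter, 2 with gene length offsets and 0 with the replicate block, and ranged from 0 to 2 when each liver was left out. Leaving out single livers turned the sign of uncalled members, with log2 fold changes from -0.33 to 0.071 for Ghr, from -0.18 to 0.059 for Igf1 and from -0.0055 to 0.36 for Socs2. Of 150 values of single members under the alternatives, 140 kept their direction and side of the threshold. Over all genes, 53 were lower and 68 higher, against 206 and 213 with DESeq2, 226 and 221 with the likelihood ratio test, 124 and 123 with gene length offsets, 6 and 2 with the replicate block, 81 and 86 with no filter, and 7 and 2 without FXR-WT replicate 3. With library totals the share of higher calls was 43.3% and not 56.2%. The cause of these changes was not tested. The labels give livers of the 2 groups only a shared number. Over genes, same-numbered livers correlated at -0.52, -0.08 and 0.12 in their deviations from the group means. Differently numbered livers correlated at -0.59 to 0.58. Deviations within a group depend on each other, so these values cannot decide whether livers were paired.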
